A study of Mus musculus with 15 samples.

Results

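Dasatinib, the first component of the senolytic combination D + Q (dasatinib plus quercetin), is a small molecule that occupies the ATP site of a set of tyrosine kinases. The genes of 10 of these kinases were followed here through the RNA-seq of dystrophic muscle and heart. They were chosen by name, as textbook targets of the drug and with earlier results of these data known, from the 56980 genes listed for each library. They are the Src-family kinases Src, Fyn, Yes1 and Lyn, the Abl kinases Abl1 and Abl2, and the receptor tyrosine kinases Kit, Pdgfra, Pdgfrb and Ddr2. All 10 passed the filter on low values in every comparison.

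The 15 libraries came from DBA/2-mdx mice, a strain without dystrophin that develops severe muscular dystrophy, and each library was 1 mouse. Tibialis anterior (TA) muscles were collected at 5 months of age, after 2 months of vehicle (4 mice, 2 males and 2 females) or D + Q (4 males) given 2 times per week from 3 months of age. Hearts were collected at 16 months of age, after 4 months of vehicle (4 mice, 2 males and 2 females) or D + Q (3 mice, 2 labelled female and 1 labelled male) given at the same frequency from 12 months of age. Every mouse was dystrophic, in the vehicle groups as well, and tissue, age and length of treatment changed together, so that a difference between TA and heart cannot be told apart from a difference between these ages or treatment lengths.

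Src-family kinases sit at the inner face of the cell membrane, where they pass signals on from integrins, cytokine receptors and growth factor receptors, and the kinase Csk holds them inactive by phosphorylating their tail. Abl kinases act largely on the actin cytoskeleton downstream of the same receptors. Of the receptors, Kit binds stem cell factor and marks mast cells, melanocytes and some progenitors. Pdgfra marks the fibroblasts and fibro-adipogenic progenitors of muscle, Pdgfrb marks pericytes and vascular smooth muscle, and Ddr2 is a receptor for fibrillar collagen on mesenchymal cells.

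The ATP sites of these kinases carry a threonine at the gatekeeper position, at the back of the pocket that dasatinib fills, and that residue is one reason why kinases of different families are hit by the same drug. The coding strand over this codon is shown for 8 of the genes, as read from the canonical GENCODE M39 transcripts of GRCm39, because it is the sequence that the genes have in common as targets. Each window is 30 bases of coding exon, 5′ to 3′, and the capitals mark the gatekeeper codon.
Src (chr2:157309500-157309529, + strand, exon 10): atttacattgtgACAgagtacatgaacaag
Fyn (chr10:39408161-39408190, + strand, exon 10): atttacatcgtcACGgagtacatgagcaaa
Yes1 (chr5:32812921-32812950, + strand, exon 8): atttatattgtcACCgagtttatgtcaaaa
Abl1 (chr2:31680697-31680726, + strand, exon 6): ttctacataatcACTgagttcatgacctat
Abl2 (chr1:156460673-156460702, + strand, exon 7): ttttacattgtgACTgaatacatgccgtat
Kit (chr5:75806501-75806530, + strand, exon 14): accctggtcattACAgaatattgttgctat
Pdgfra (chr5:75342188-75342217, + strand, exon 15): atttacatcatcACAgaatactgcttctat
Ddr2 (chr1:169812514-169812543, - strand, exon 15): ctctgcatgatcACGgaatacatggagaat
All 8 codons encode threonine. The window of Fyn shares 25 of 30 bases with that of Src, and that of Yes1 shares 21. Abl2 shares 22 bases with Abl1 and 22 with Src as well. Lyn, whose window is not shown, shares 23 with Abl1 and 21 with Src, so likeness in this window does not follow the families alone. Kit is the least alike, with 13 bases shared with Abl1 and 12 with Src.

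Expression was given as TPM, a level per transcript length scaled to the same total in each library, so that levels of different genes can be set side by side. Depth cannot be read from TPM, so no counting error is given. Tissue labels matched their muscle markers. Summed TPM of 6 skeletal muscle genes was 40359 to 51606 in TA and 1330 to 1783 in hearts. In hearts that sum was mostly Ckm, at 1042 to 1276 TPM, and Acta1, at 286 to 644 TPM. The summed TPM of 6 heart muscle genes (Myh6, Tnni3, Tnnt2, Myl2, Myl3 and Actc1) was 74.8 to 190 in TA and 22901 to 30360 in hearts. Between 21830 and 25378 genes were above 0 per library. Libraries that stood apart bear on results below. The label of D + Q heart replicate 3 is male, yet Xist stood at 47.2 TPM in it and no Y-linked gene of the 4 examined passed 0.0279 TPM. Read from expression, all 3 D + Q hearts were female and all 4 D + Q TA were male, so that tissue and sex cannot be told apart in treated mice. D + Q heart replicate 2 held 21.5 TPM of the skeletal fibre gene Tnnt3, against 0.219 to 1.77 in the other 6 hearts. TA D + Q replicate 3 had the lowest level of its group for 8 of the 10 kinases, and TA vehicle replicate 4 for 7.

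In vehicle-treated TA the receptors of mesenchymal cells were at the top of the order, and in vehicle-treated heart Fyn was. Mean TPM in vehicle-treated TA was 24.2 ± 3.68 (SD, n = 4) for Pdgfra, 23.6 ± 5.27 for Pdgfrb, 23.0 ± 4.36 for Ddr2, 17.0 ± 4.62 for Abl1, 13.0 ± 2.33 for Fyn, 12.2 ± 1.5 for Abl2, 12.1 ± 1.67 for Lyn and 11.8 ± 2.27 for Yes1. Src, at 3.63 ± 0.23, and Kit, at 2.47 ± 0.92, were far below. The ranges of neighbours in this order overlapped at each step but the one from Yes1 to Src. Vehicle-treated heart had the order Fyn (18.9 ± 3.18 TPM, n = 4), Pdgfra (17.2 ± 2.15), Pdgfrb (16.9 ± 1.80), Abl1 (15.5 ± 1.93), Lyn (12.4 ± 1.53), Ddr2 (11.2 ± 0.79), Yes1 (10.6 ± 0.75), Abl2 (6.10 ± 0.86), Src (3.12 ± 0.76) and Kit (2.16 ± 0.30). Here the ranges overlapped from Fyn down to Yes1 and were apart between Yes1 and Abl2, Abl2 and Src, and Src and Kit. Ddr2 went from the third place in TA to the sixth in heart, and Abl2 from the sixth to the eighth.

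**Figure D1:**
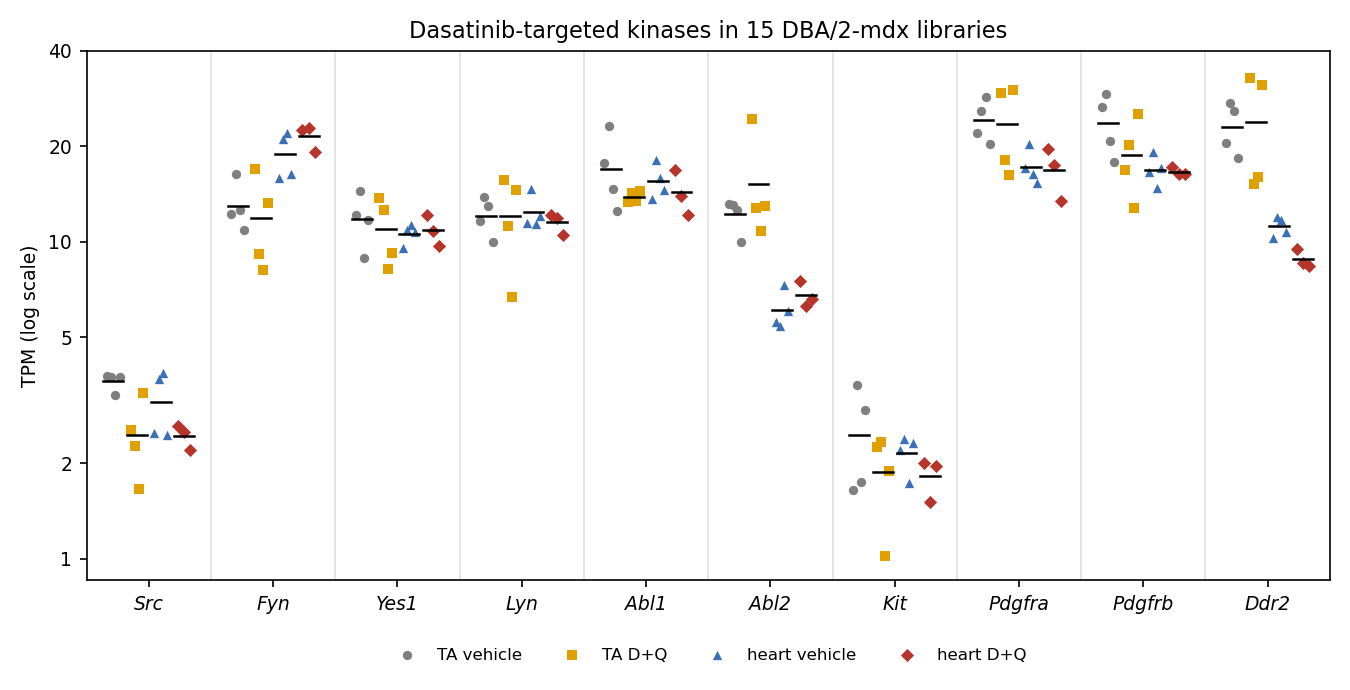
TPM (log scale) of the 10 kinase genes in each of the 15 libraries, with a point for each mouse and a black line at the group mean, for vehicle TA, D + Q TA and vehicle heart (4 mice each) and D + Q heart (3 mice). Fyn lies higher in heart, with 15.9 to 22.9 TPM, Abl2 and Ddr2 lie lower there, and Src and Kit are the lowest in every group.

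The comparison of TA and heart asks which of the drug's targets differ in abundance between the tissues that were treated. It was made with limma on log2(TPM + 0.5) of all 15 libraries, with labelled sex in the model, separately for vehicle-treated and D + Q–treated mice. A gene passed where its adjusted p-value (Benjamini-Hochberg over 17868 genes) was under 0.05 and its log2 fold change was beyond 0.5 in either direction. Fold changes on this scale understate changes of genes at a few TPM, such as Src and Kit. In vehicle-treated mice 3 of the 10 kinases passed, Fyn higher and Abl2 and Ddr2 lower in heart, and among all genes 36.7% passed, 14.2% higher and 22.5% lower. In D + Q–treated mice the same 3 kinases passed in the same directions, against 34.7% of all genes, 13.3% higher and 21.4% lower. With 10 kinases, 3 that passed is close to the share of all genes in both treatments. Hearts and TA did not overlap for 3 of the 10 kinases with vehicle (Abl2, Ddr2 and Pdgfra), beside 40.9% of all genes, and for 3 of the 10 with D + Q (Fyn, Abl2 and Ddr2), beside 46.7%. The median log2 difference of the 10 kinases was -0.17 in vehicle-treated and -0.13 in D + Q–treated mice, beside -0.16 for all genes in each.

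Ddr2, the collagen receptor, had the largest difference of the 10. It had 20.4, 27.5, 25.9 and 18.3 TPM in vehicle TA replicates 1 to 4 and 10.3, 12.0, 11.7 and 10.8 TPM in the vehicle hearts. In D + Q–treated mice it had 32.9, 15.3, 16.0 and 31.1 TPM in TA and 9.49, 8.58 and 8.38 TPM in heart. Every heart was below every TA. The log2 difference, heart minus TA, was -0.99 (SE 0.23, limma adjusted p = 0.00264) with vehicle and -1.35 (SE 0.28, limma adjusted p = 0.00159) with D + Q. Ddr2 kept its call in all 23 alternative settings of each comparison.

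Abl2, also called Arg, binds and bundles actin filaments at the cell edge, and it was lower in heart as well. Vehicle TA had 13.2, 13.1, 12.6 and 9.99 TPM and vehicle hearts had 5.59, 5.44, 7.33 and 6.06 TPM. D + Q TA had 24.3, 12.8, 10.8 and 12.9 TPM and D + Q hearts had 7.52, 6.28 and 6.62 TPM. The groups were apart in both treatments. Abl2 differed by -0.94 (SE 0.20, limma adjusted p = 0.00172) with vehicle and by -1.03 (SE 0.25, limma adjusted p = 0.00471) with D + Q, and it kept its call in all 23 alternatives of each.

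Abl1, its closest relative, did not go with it. Abl1 had 17.7, 23.1, 14.6 and 12.5 TPM in vehicle TA and 13.6, 18.1, 15.9 and 14.6 TPM in vehicle hearts, and the values overlapped. With D + Q it had 13.3, 14.2, 13.4 and 14.4 TPM in TA and 16.8, 14.0 and 12.1 TPM in heart. Its log2 difference was -0.10 (95% interval -0.43 to 0.23) with vehicle and -0.10 (-0.51 to 0.30) with D + Q. Abl2 therefore made up 36.1% to 46.3% of the summed TPM of Abl1 and Abl2 in vehicle TA and 23.1% to 31.6% in vehicle hearts, with 44.7% to 64.5% and 30.9% to 35.3% after D + Q. The shares of TA and heart did not overlap in either treatment.

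Fyn, a Src-family kinase best known from T cells and myelinating glia, went the other way. It had 12.2, 16.3, 12.6 and 10.9 TPM in vehicle TA and 15.9, 21.1, 22.1 and 16.4 TPM in vehicle hearts. The lowest heart was just under the highest TA. D + Q TA had 17.0, 9.13, 8.17 and 13.3 TPM and D + Q hearts had 22.5, 22.9 and 19.2 TPM, without overlap. Fyn was higher in heart by 0.52 (SE 0.19, limma adjusted p = 0.0400) with vehicle, a value just past both thresholds, and by 0.71 (SE 0.23, limma adjusted p = 0.0273) with D + Q. The call was kept in 11 of 23 alternatives with vehicle (adjusted p from 0.00188 to 0.118) and in 17 of 23 with D + Q (0.00158 to 0.126). With vehicle it was lost without any 1 of the vehicle mice except TA replicate 2, or any 1 of the 3 D + Q hearts, and the log2 difference was 0.38 without vehicle TA replicate 4. With D + Q it was lost without TA replicate 2 or 3 or heart replicate 2 or 3, and without heart replicate 3 it was 0.70 (limma adjusted p = 0.126). It was lost as well with sex read from expression, at 0.63 (limma adjusted p = 0.119), and without the filter (limma adjusted p = 0.0543).

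The other Src-family kinases showed no such difference. Yes1, a widely expressed member, had 12.2, 14.4, 8.89 and 11.7 TPM in vehicle TA and 9.54, 10.9, 11.3 and 10.7 TPM in vehicle hearts. Lyn, which is abundant in myeloid cells, had 11.6, 13.8, 12.9 and 9.97 TPM in vehicle TA and 11.4, 14.6, 11.4 and 12.0 TPM in vehicle hearts. The tissues overlapped for both genes, and the 95% intervals of the log2 difference were -0.47 to 0.21 for Yes1 and -0.41 to 0.49 for Lyn. Src, the founding member, had a log2 difference of -0.21 (-0.56 to 0.14). Of the summed TPM of the 4 Src-family kinases, Fyn made up 30.0% to 33.8% in vehicle TA, 26.0% to 34.7% in D + Q TA, 39.4% to 45.4% in vehicle hearts and 45.5% to 47.6% in D + Q hearts. No heart had a share of Fyn as low as the highest TA.

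**Figure D2:**
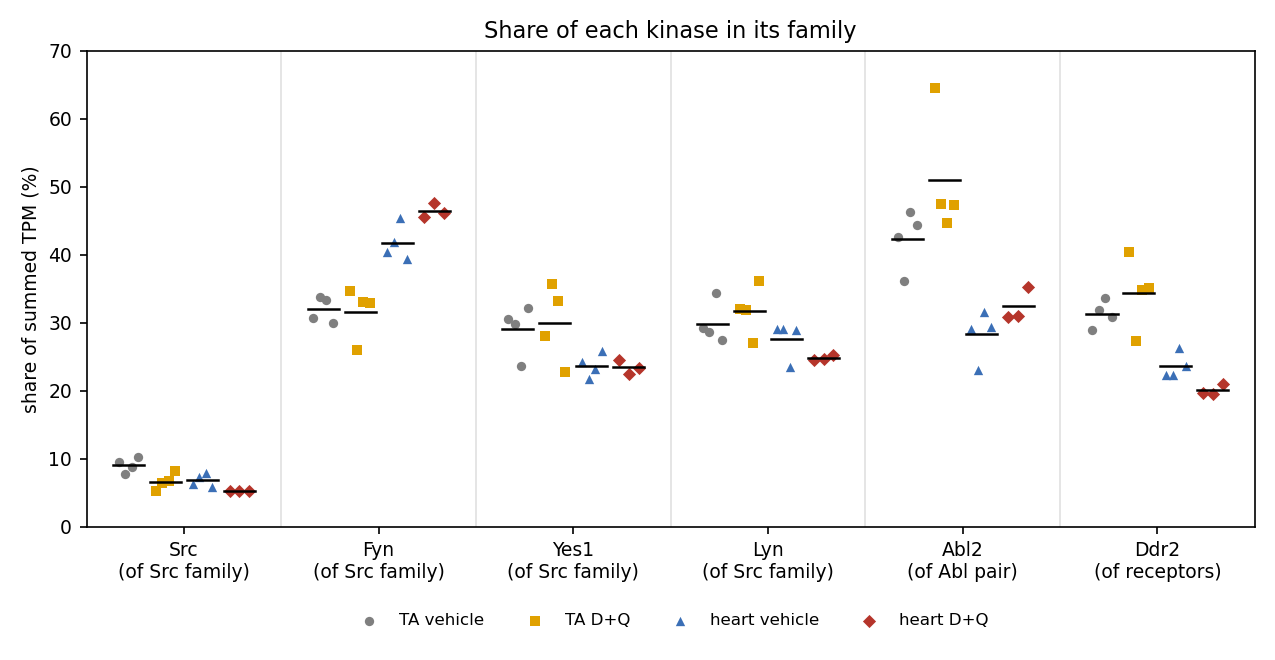
Share (%) of summed TPM taken by each kinase within its family, with a point for each mouse and a black line at the group mean, in vehicle and D + Q TA (4 mice each), vehicle heart (4) and D + Q heart (3). The share of Fyn is 39.4% to 47.6% in hearts and 26.0% to 34.7% in TA, and the shares of Abl2 and Ddr2 are lower in hearts.

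Among the receptors, Pdgfra and Pdgfrb were lower in heart by amounts that did not pass. Pdgfra had 22.1, 25.9, 28.5 and 20.4 TPM in vehicle TA and 17.1, 20.3, 16.3 and 15.3 TPM in vehicle hearts, which did not overlap by a narrow margin. Its log2 difference was -0.47 (SE 0.20, limma adjusted p = 0.0681) with vehicle. With D + Q, Pdgfra had 29.4, 18.1, 16.2 and 30.2 TPM in TA and 19.6, 17.4 and 13.4 TPM in heart, an overlap, and differed by -0.52 (limma adjusted p = 0.109). Pdgfrb had 26.6, 29.3, 20.7 and 17.8 TPM in vehicle TA and 16.6, 19.1, 14.8 and 17.1 TPM in vehicle hearts, with 1 heart above the lowest TA. It differed by -0.45 (SE 0.19, limma adjusted p = 0.0727) with vehicle and by -0.13 (limma adjusted p = 0.706) with D + Q. Without vehicle TA replicate 4, which had the lowest Pdgfra and Pdgfrb of its group, both passed, at -0.59 each, and without D + Q TA replicate 3 Pdgfra passed with D + Q, at -0.68.

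Kit, the stem cell factor receptor, had 1.65, 3.53, 1.75 and 2.94 TPM in vehicle TA and 2.21, 2.39, 1.74 and 2.32 TPM in vehicle hearts. Its log2 difference was -0.11 (95% interval -0.60 to 0.38) with vehicle and -0.13 (-0.73 to 0.47) with D + Q, too wide to exclude a change past the fold threshold. Mast cell markers were lower in heart. In vehicle-treated mice 5 of 7 tested mast cell genes were lower in heart and 0 were higher, their summed TPM was 41.0 to 76.1 in TA and 19.1 to 22.9 in heart, and Tpsab1, Fcer1a and Ms4a2 were under 0.5 TPM in every heart, so that Tpsab1, 1 of the 5, met the filter through TA alone. Of 6 melanocyte genes, Tyr, Tyrp1 and Pmel were under 0.5 TPM in all 15 libraries, and Dct and Mlana were under 0.5 TPM in every TA and met the filter through the hearts alone, with 1.92 to 3.74 and 0.985 to 7.32 TPM in vehicle hearts. Mitf, which other cells also express, made up most of the summed level of the list, with 12.5 to 16.8 of 12.8 to 17.1 TPM in vehicle TA and 19.8 to 23.6 of 24.8 to 32.7 TPM in vehicle heart, and was higher in heart by 0.56 (limma adjusted p = 0.000721).

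Markers of other cell types differed between the tissues beside these results, and in whole-tissue RNA fewer cells of a type cannot be told apart from less RNA per cell. In vehicle-treated mice, beside Ddr2 and Pdgfra, 2 of 8 fibroblast markers (Col6a3, -2.80, and Mfap5, -0.91) were lower in heart, and Tcf21, at 0 to 0.035 TPM in TA and 6.34 to 13.8 TPM in heart, met the filter through the hearts alone. For the fibroblast list the summed level was 1112 to 1342 TPM in TA and 818 to 1219 TPM in heart. Beside Pdgfrb, 2 of 8 mural cell markers were higher and 1 was lower, with 342 to 443 TPM in TA and 481 to 650 TPM in heart. Endothelial markers stood at 149 to 236 TPM in TA and 242 to 298 TPM in heart, with 4 of 6 higher. Macrophage markers, beside Lyn, stood at 116 to 223 TPM in TA and 95.7 to 132 TPM in heart, with 1 of 6 higher and 2 lower. With D + Q, beside Tcf21, 3 fibroblast markers were lower in heart, and the list stood at 805 to 1361 TPM in TA and 696 to 801 TPM in heart. The part of these cells in the kinase differences was not tested.

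**Figure D3:**
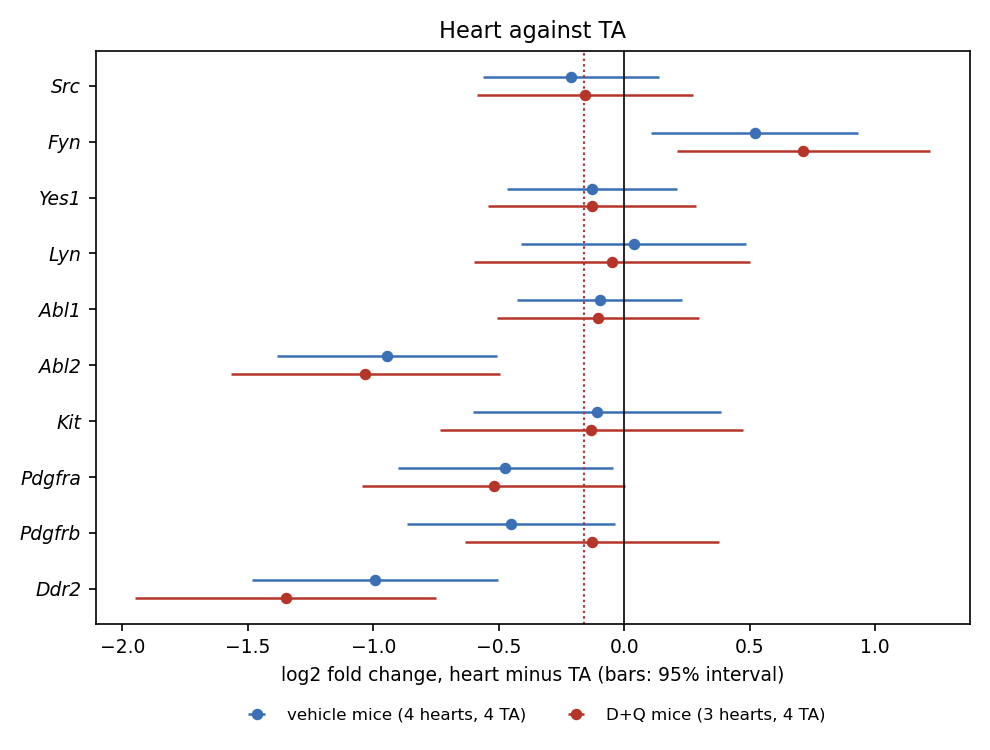
Log2 fold change of each kinase, heart minus TA, in vehicle-treated (4 hearts, 4 TA) and D + Q–treated mice (3 hearts, 4 TA), as points with 95% intervals. The dotted line is the median of all genes (-0.16 in both, so the lines coincide). Fyn lies right of 0 and Abl2 and Ddr2 left of it in both treatments, and the intervals of Src, Yes1, Lyn, Abl1 and Kit cross 0.

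The genes around the kinases were counted in lists for ligands, other dasatinib-binding kinases, regulators and substrates. Ligands of the receptors showed the largest differences. Of 9 tested ligand genes, vehicle-treated heart had 1 higher and 5 lower, and D + Q–treated heart had 1 higher and 6 lower, with medians of -0.91 in both. The fibrillar collagens that bind Ddr2 led them. Col1a1 had 204, 415, 235 and 468 TPM in vehicle TA and 29.9, 31.1, 28.5 and 26.6 TPM in vehicle hearts, a log2 difference of -3.40 (SE 0.18, limma adjusted p = 2.23e-09). Col1a2 (-2.92), Col3a1 (-2.68) and Col5a1 (-1.63) were lower as well, as was Ddr2 itself.

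The PDGF ligands did not move as one. Pdgfd, a ligand of Pdgfrb, had 1.81, 3.27, 2.18 and 2.76 TPM in vehicle TA and 7.05, 7.94, 6.27 and 6.88 TPM in vehicle hearts, and was higher in heart by 1.35 (SE 0.14, limma adjusted p = 3.49e-06). Pdgfa, a ligand of Pdgfra, had 24.8, 20.02, 23.0 and 13.9 TPM in vehicle TA and 9.51 to 11.4 TPM in the 4 vehicle hearts. It was lower in heart by 0.91 on the log2 scale (SE 0.20, limma adjusted p = 0.00216). Kitl, which encodes stem cell factor, differed by 0.48 without passing (limma adjusted p = 0.142).

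**Figure D4:**
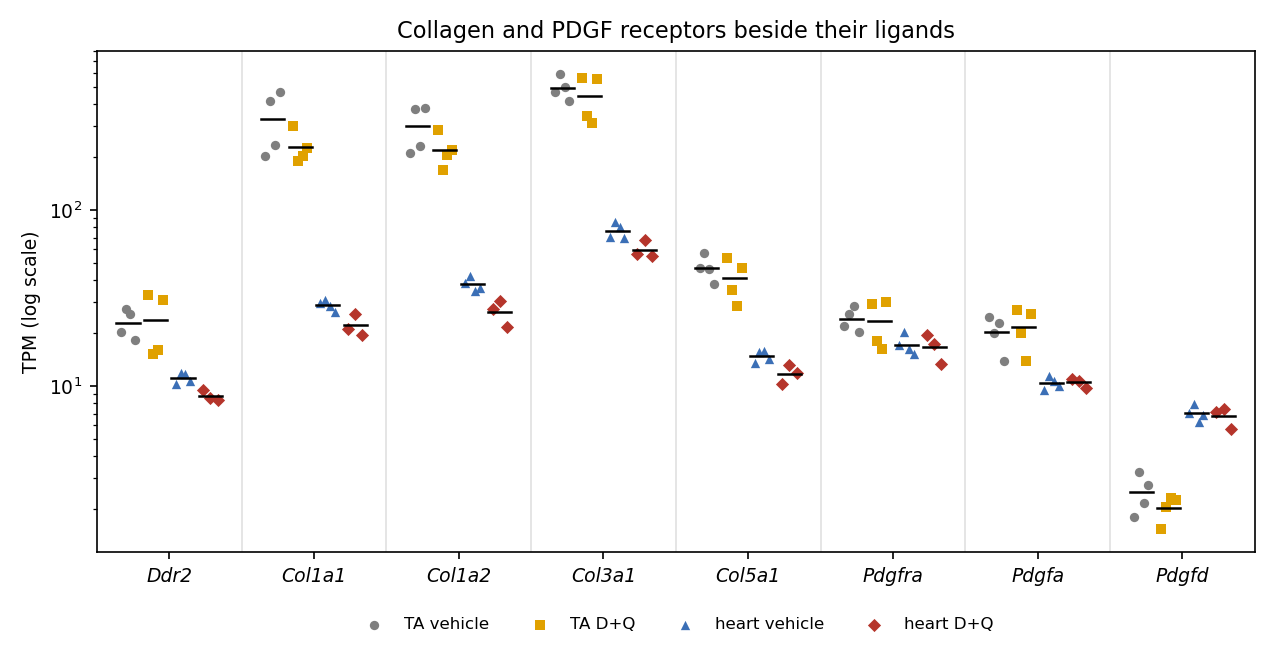
TPM (log scale) of Ddr2 with 4 fibrillar collagen genes, and of Pdgfra with Pdgfa and Pdgfd, with a point for each of the 15 mice and a black line at the group mean. Collagens and Pdgfa lie lower in hearts than in TA and Pdgfd lies higher, and in D + Q hearts Ddr2 and the 4 collagens lie below all vehicle hearts.

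Other kinases that dasatinib binds differed in both directions. Of 25 tested, vehicle-treated heart had 6 higher and 8 lower, and D + Q–treated heart had 6 higher and 7 lower. The ephrin receptors Epha4 (2.32 with vehicle, 2.61 with D + Q) and Ephb1 (2.02 and 2.48) were higher, whereas the p38 kinase Mapk14 (-1.21 and -1.20) was lower. Among those counted as lower, Epha3 and Ephb2 met the filter through TA alone. Epha3 had 0.48 to 1.38 TPM in TA and 0 to 0.148 TPM in heart. Regulators of these kinases were lower in 5 of 11 cases and higher in 0, in each treatment. With vehicle these were the phosphatases Ptprc (-1.18), Ptpn1 (-1.20), Ptpn2 (-0.73) and Ptpre (-0.61) and the ubiquitin ligase Cblb (-0.96), while Csk differed by 0.26 without passing (limma adjusted p = 0.288). Of 20 adaptors and substrates 4 were lower and 0 were higher in each treatment. With vehicle they were Stat5b (-1.61), the focal adhesion protein gene Pxn (-1.24), Dok1 (-0.72) and Crkl (-0.56). These counts stand beside 36.7% of all genes with vehicle and 34.7% with D + Q.

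Scaling matters for the small differences between tissues. With median-of-ratios scaling of the TPM the median difference of all genes moved from -0.16 to 0.0036 with vehicle and from -0.16 to 0.00087 with D + Q. Fyn, Abl2 and Ddr2 kept their direction and call, while the sign of Yes1, Abl1 and Kit with vehicle, and of these 3 and Src, Lyn and Pdgfrb with D + Q, turned without a call on either scale.

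The comparison of D + Q with vehicle asks whether treatment changed the abundance of the drug's own targets. In TA, 0 of the 10 kinases passed, and 0 of 16298 genes did (0%), in a limma model with 1 surrogate variable. The smallest adjusted p-value of any gene in this fit was 0.999 (limma). The study, with a count test and the same thresholds, reports genes both up and down in treated TA. The absence of calls in this fit therefore does not show an absence of response, nor of change in the kinases. Groups that did not overlap were found for 0 of the 10 kinases and for 1.52% of all genes. At an unadjusted p-value under 0.05, whatever the fold, 1 of the 10 kinases and 2.99% of all genes were found. The log2 fold change, adjusted for the surrogate variable, was negative for 9 kinases and positive for Abl2, with a median of -0.24 beside -0.07 for all genes. Mean TPM, without that adjustment, lay closer together for some kinases. In vehicle and D + Q TA it was 23.0 and 23.8 for Ddr2, 12.1 and 12.0 for Lyn, and 24.2 and 23.5 for Pdgfra. It was 11.8 and 10.9 for Yes1, 13.0 and 11.9 for Fyn, and 17.0 and 13.8 for Abl1. For Pdgfrb it was 23.6 and 18.8, for Kit 2.47 and 1.87, for Src 3.63 and 2.45, and for Abl2 12.2 and 15.2. Markers of other cells moved beside them, and their part was not tested. All 7 tested fibroblast markers (median -0.23, 0 passed) and all 6 endothelial markers (median -0.26, 0 passed) had negative log2 fold changes in TA, with summed levels of 1112 to 1342 and 805 to 1361 TPM for fibroblasts and 149 to 236 and 126 to 181 TPM for endothelium in vehicle and treated TA. Since the treated TA were from males and the vehicle group held 2 females, the 4 treated mice were also compared with the 2 vehicle males alone, without a covariate. In that comparison 0 kinases passed, and Yes1 (0.04) and Kit (0.07) turned positive.

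Src had the largest fold change in TA. It had 3.77, 3.73, 3.29 and 3.74 TPM in vehicle TA and 2.55, 2.26, 1.66 and 3.34 TPM in D + Q TA. Vehicle values lay close together, and D + Q replicate 4 was the only treated mouse within their range. The log2 fold change was -0.57 (SE 0.20, 95% interval -1.01 to -0.12, limma unadjusted p = 0.0175, adjusted p = 0.999). Against the 2 vehicle males it was -0.48, and when each mouse was left out it ran from -0.68 to -0.36, with -0.36 without D + Q replicate 3.

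The other kinases overlapped widely between treated and vehicle-treated TA. Their fold changes ran from -0.38 for Pdgfrb to 0.10 for Abl2 on the log2 scale. Pdgfrb had 16.8, 20.2, 12.7 and 25.3 TPM with D + Q. Kit had 2.26, 2.33, 1.02 and 1.89 TPM, Lyn 15.6, 11.2, 6.69 and 14.6 TPM, and Yes1 13.7, 12.6, 8.22 and 9.19 TPM. D + Q replicate 3 had the lowest value of each of these 4 genes. Treated TA varied more between mice than any other group, with a median coefficient of variation over the 10 kinases of 31.7%, beside 18.4% in vehicle TA, 12.4% in vehicle heart and 9.47% in D + Q heart. Ddr2, Pdgfra and Lyn were high together in D + Q replicates 1 and 4 and low in replicates 2 and 3, while Abl1 stayed within 13.3 and 14.4 TPM in all 4. The surrogate variable of the TA model was 0.70 and 0.23 in replicates 1 and 4 and -0.14 and -0.42 in replicates 2 and 3.

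In heart, 0 of the 10 kinases passed, beside 0.316% of 16132 genes (51 genes), in a limma model that held labelled sex. The study's count test reports more genes than that in treated heart, at the same thresholds. At an unadjusted p-value under 0.05, whatever the fold, 2 of the 10 kinases (Ddr2 and Src) and 17.6% of all genes were found. Of the 10, 3 had a positive and 7 a negative log2 fold change, with a median of -0.11 beside -0.0025 for all genes. Yes1 (0.0039), Pdgfrb (-0.02) and Pdgfra (-0.09) had the smallest fold changes, with 95% intervals of -0.19 to 0.20, -0.25 to 0.20 and -0.35 to 0.17, which lie within the fold threshold in this model. With the score of atrial genes described below as covariate, in place of labelled sex, their fold changes were 0.54, 0.14 and 0.46, without passing.

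Ddr2 was the kinase with the smallest p-value in heart. The 3 treated hearts, at 9.49, 8.58 and 8.38 TPM, all lay below the 4 vehicle hearts, at 10.3, 12.0, 11.7 and 10.8 TPM. Groups did not overlap for 1 of the 10 kinases and for 15.2% of all genes, of which 5.57% were below. The log2 fold change was -0.35 (SE 0.07, 95% interval -0.52 to -0.17, limma unadjusted p = 0.00201, adjusted p = 0.103). It ran from -0.38 to -0.31 when each heart was left out. With D + Q replicate 3, whose Xist and Y-linked levels go against its label, counted as female it was -0.41 (limma adjusted p = 0.180), and without that library it was -0.37 (limma adjusted p = 0.301).

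The collagen ligands of Ddr2 were lower in the same hearts by similar amounts, without passing. Col1a1 had 21.2, 25.9 and 19.5 TPM with D + Q, Col1a2 had 27.4, 30.5 and 21.6 TPM against 38.8, 42.1, 34.8 and 36.0 TPM with vehicle, and Col3a1 had 56.7, 67.6 and 54.7 TPM against 70.5, 86.1, 80.6 and 69.6 TPM. Treated hearts lay below all vehicle hearts for 5 of 9 ligands, namely these 3, Col5a1 and Pdgfc, beside 5.57% of all genes. Their log2 fold changes were -0.41 for Col1a1, -0.55 for Col1a2, -0.40 for Col3a1, -0.33 for Col5a1 and -0.49 for Pdgfc, with limma adjusted p from 0.0934 to 0.213, and the 9 ligands had a median of -0.33. In TA the same 4 collagens had log2 fold changes of -0.47 to -0.33 with overlapping groups, and 0 of 9 ligands passed.

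Fibroblast and atrial genes moved beside Ddr2 and the collagens. All 8 fibroblast markers had negative log2 fold changes in treated heart (median -0.28, 0 passed), and their summed level was 818 to 1219 TPM in vehicle and 696 to 801 TPM in treated hearts. Of 5 atrial genes 3 passed as lower in treated heart. The summed TPM of the 5 was 864 to 4260 in vehicle and 382 to 427 in treated hearts. Nppa made up most of it, with 574 to 2956 TPM in vehicle and 373 to 421 TPM in treated hearts. Myl4 had 72.0 to 515 TPM in vehicle and 2.05 to 4.62 TPM in treated hearts. Bmp10 and Sln were under 0.5 TPM in every treated heart and met the filter through the vehicle hearts alone. For all 6 heart muscle genes named above the treated hearts lay above all vehicle hearts without passing, beside 9.63% of all genes. With a score of the atrial genes Myl7, Myl4 and Sln as covariate in place of labelled sex, Ddr2 turned to 0.14 and Src to 0.91. Neither passed (limma adjusted p = 0.856 and 0.619). Each of these 3 atrial genes was lower in every treated heart than in every vehicle heart. That fit can therefore hardly separate treatment from the score. The part of atrial tissue and of fibroblasts in the kinase values was not tested further.

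Src, at 2.49, 3.69, 3.87 and 2.46 TPM in vehicle hearts and 2.63, 2.51 and 2.20 TPM in treated hearts, had a log2 fold change of -0.34 (SE 0.12, limma unadjusted p = 0.0206, adjusted p = 0.195). The 2 vehicle females had the high values and the 2 vehicle males the low ones, and the treated hearts, all female by expression, overlapped with the males and lay below both females. With sex read from expression the log2 fold change of Src was -0.54 (limma adjusted p = 0.1902). Fyn had 0.14 (95% interval -0.02 to 0.29), and -0.01 with sex read from expression. Abl2 had 0.14 (-0.15 to 0.43), Lyn -0.12 (-0.35 to 0.10), Abl1 -0.17 (-0.38 to 0.05) and Kit -0.17 (-0.52 to 0.17), with overlapping groups. Beside Kit, all 5 tested mast cell genes had negative log2 fold changes and 0 passed, with summed levels of 19.1 to 22.9 TPM in vehicle and 11.3 to 18.7 TPM in treated hearts. Of the melanocyte genes, 0 of 3 tested passed. For Dct (0.60) the treated hearts lay above all vehicle hearts. Mlana (-2.42), at 0.210 to 0.322 TPM in treated hearts, met the filter through the vehicle hearts alone. Src had the lowest share of the Src family in every group, at 5.23% to 5.31% in treated hearts and 5.91% to 7.95% in vehicle hearts, which did not overlap.

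**Figure D5:**
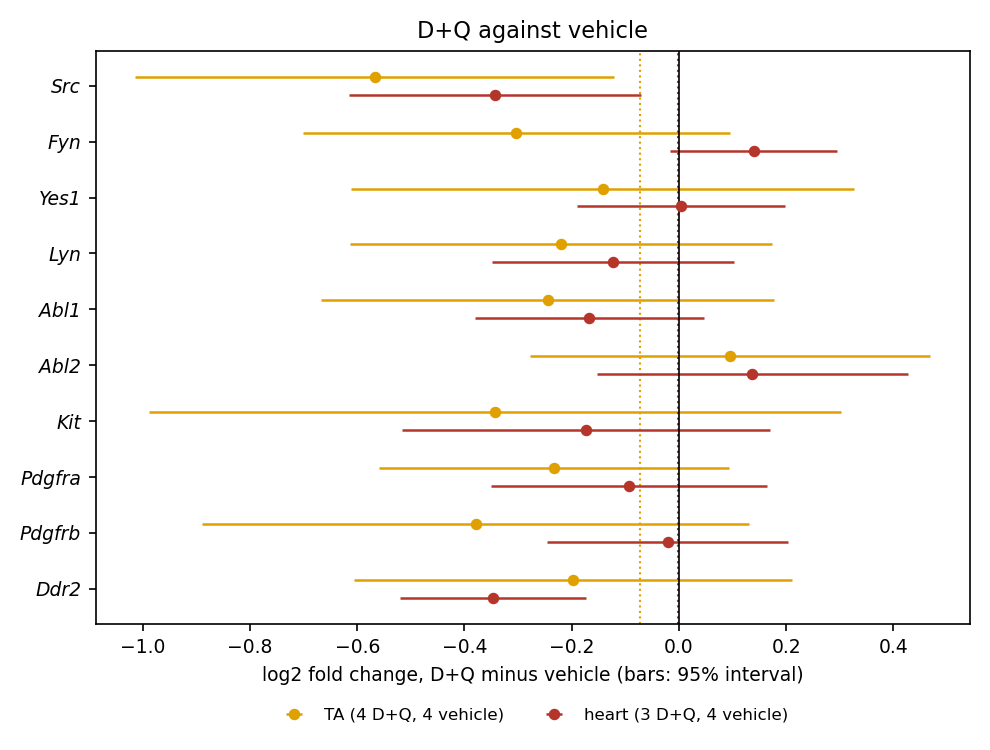
Log2 fold change of each kinase, D + Q minus vehicle, in TA (4 and 4 mice) and heart (3 and 4 mice), as points with 95% intervals, and dotted lines at the median of all genes (-0.07 in TA, -0.0025 in heart). The interval lies below 0 for Src in both tissues and for Ddr2 in heart, and it crosses 0 for each of the others.

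The effect of D + Q was not shown to differ between the tissues for any of the 10 kinases. The test of the difference, an interaction term in the model of all 15 libraries, passed for 0 of 10 kinases and for 0.0616% of 17868 genes (11 genes). Without adjustment 0 kinases and 4.22% of all genes were under 0.05. Estimates ran from -0.35 (Ddr2, 95% interval -1.13 to 0.42) to 0.32 (Pdgfrb, -0.33 to 0.98), heart minus TA. These intervals are wide, so that a sizeable difference between the tissues was not excluded either.

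Correlations between the kinases from mouse to mouse were mostly above 0, and the share for pairs of other genes was not computed. After the group means had been removed, the correlation (Pearson) of log2(TPM + 0.5) over the 15 libraries was above 0 for all 45 pairs of kinases, from 0.12 to 0.89 with a median of 0.49. Within TA (8 libraries) all 45 pairs were above 0, and within heart (7 libraries) 36 were, with the lowest at -0.64. Pdgfra and Ddr2, both mesenchymal receptors, had 0.97 within TA, the highest of all pairs there, and 0.66 within heart. Pdgfra and Pdgfrb had 0.50 within TA and 0.54 within heart. These values are a description, since the points of a library share its scaling and its mixture of cells.

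The genes whose pattern was most like that of each kinase were taken as the 3 highest correlations among 17868 genes, over the same 15 libraries. Pdgfra went with Tgfbi (0.97), Snai1 (0.97) and Ust (0.95), and Ddr2 with Wdr36 (0.97), Rasal2 (0.97) and Fjx1 (0.96). Pdgfrb went with Slc66a1 (0.96), Tor4a (0.95) and Actmap (0.94), and Kit with Lamb1 (0.91), Gm42752 (0.88) and Myl2 (0.88). In the Src family, Fyn was closest to Ptprk (0.97), Ncoa5 (0.96) and Htt (0.95), Lyn to Rgl1 (0.97), Tram2 (0.96) and Arpc1b (0.96), Yes1 to Lmo7 (0.95), Zfp385b (0.93) and Apex2 (0.91), and Src to Igf1r (0.91), the pseudogene Rpl9-ps6 (0.90), whose reads may belong to its parent gene, and Nudc (0.90). Abl1 was closest to Apeh (0.97), Plekhg3 (0.96) and Sufu (0.94), and Abl2 to Klf16 (0.94), Helz2 (0.94) and Dnajb1 (0.94). No gene was among the 3 closest to more than 1 kinase.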

How the data were processed

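RNA-seq of 15 libraries, each from 1 mouse, was analysed from the TPM that the authors deposited for 56980 genes. The authors trimmed reads with Trim Galore 0.6.10, quantified them with Salmon 1.10.3 against GRCm39 and summarised them per gene with tximport, and per the labels RNA was total RNA of snap-frozen tissue. Their annotation release is not given in the sources used here, and 56236 identifiers matched GENCODE M39. TPM keeps no depth, so the precision given comes from the spread between mice.

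A gene entered a fit when 3 or more of its libraries reached 0.5 TPM. log2(TPM + 0.5) was fitted in R 4.3.3 with limma 3.58.1 (lmFit, eBayes with a trend), with 1 surrogate variable in TA (5 rounds of re-weighting), labelled sex in heart, and group means with labelled sex for comparisons across tissues. p-values were adjusted over all genes tested. The study's count test was not used, as the values are TPM. Intervals cover 95%. Fits were tested on simulated data.

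The 10 kinases and the gene lists were chosen with earlier results of these data known. All 10 kinases are named, and for each kinase the 3 genes most like it. From each list the genes that passed were to be named, up to 5 by adjusted p-value. For several lists and comparisons only their counts are given. Pdgfa, Pdgfc, Kitl, Csk and Tnnt3 and the marker genes of other cell types were picked with their values in view. Males only in TA and heart without the library of doubtful sex were alternatives chosen after seeing the data. Replicate numbers do not mark shared animals.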

Additional observations from a re-analysis of the deposited data

Results flagged for a closer look

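In groups of 4 mice, the lowest or highest value was compared with the gap to its neighbour for the 10 kinases in 3 groups, 30 tests in all, and 2 lay far from the rest, where chance flags about 1 in 20 groups. Src in vehicle TA replicate 3, at 3.29 TPM, was below the other 3 mice, which lay within 3.73 and 3.77 TPM. Abl2 in D + Q TA replicate 1, at 24.3 TPM, was above the other 3, which lay within 10.8 and 12.9 TPM. Without that mouse the log2 fold change of Abl2 in TA was 0.0035.

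The difference between treated and vehicle-treated mice was not the same in heart and TA, by the interaction term in limma, for 2 atrial genes that stand beside the heart results. The log2 difference, heart minus TA, was -6.88 for Myl4 (limma adjusted p = 8.87e-05) and -5.67 for Sln (limma adjusted p = 0.000163). Sln was at 0.0408 to 0.416 TPM in treated hearts and met the filter among hearts through the vehicle group alone. Its difference is therefore set against a floor. Summed TPM of the 5 atrial genes was 864 to 4260 in vehicle and 382 to 427 in treated hearts, most of it from Nppa. How much atrium each sample held is not given in the sources used here. Treatment and the atrial share of the sample therefore cannot be told apart. Myl7, listed at 0 in all 8 TA libraries, had 94.1 to 730 TPM in vehicle hearts and 3.46 to 4.54 TPM in treated hearts, and is given with no such test.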

How the results depend on the processing

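Counts of kinases that passed stayed within 1.5 times, at 0 in TA, heart and the interaction under every alternative, and at 2 or 3 in the tissue comparisons, except 4 in vehicle-treated mice without TA vehicle replicate 4, where Pdgfra and Pdgfrb passed and Fyn did not. Replicate numbers did not pair the mice (mean correlation of same-numbered deviations -0.11 in TA and 0.00054 in heart). With the replicate block 0, 0, 2, 3 and 0 kinases passed in TA, heart, vehicle-treated heart against TA, D + Q heart against TA and the interaction, and Fyn no longer passed with vehicle (adjusted p = 0.0696). Over all genes, the 51 calls in heart ran from 0 to 136 when each heart was left out, and were 0 without the filter, 13 without the trend, 4 with the block, 25 with sex read from expression and 0 with the atrial covariate, and TA ran from 0 to 2. The 11 interaction calls were 6 without the filter and 5 with the block, and ran from 5 to 14 when each mouse was left out.

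Reversals concerned kinases that passed in neither setting, and their cause was not tested. In TA, sex in place of the surrogate variable, and males only, gave 0.038 for Yes1 and 0.072 for Kit. Both settings must give the same fold changes, since every treated TA was male and only the vehicle males are set against them. In heart, sex read from expression gave -0.0083 for Fyn and -0.031 for Yes1. There the atrial covariate, which replaced labelled sex and can hardly be separated from treatment, gave 0.91 for Src, 0.44 for Lyn, 0.72 for Abl1, 0.46 for Pdgfra, 0.14 for Pdgfrb and 0.14 for Ddr2. In vehicle-treated heart against TA, median-of-ratios scaling gave 0.052 for Yes1, 0.087 for Abl1 and 0.047 for Kit. In D + Q heart against TA it gave 0.0066 for Src, 0.056 for Yes1, 0.14 for Lyn, 0.082 for Abl1, 0.031 for Kit and 0.060 for Pdgfrb, no covariate gave 0.024 for Src, 0.018 for Yes1, 0.0024 for Lyn, 0.034 for Abl1 and 0.0070 for Kit, and the replicate block gave 0.044 for Src, 0.0074 for Lyn and 0.052 for Kit. In the interaction, a pseudocount of 1 gave -8.42e-05 for Yes1, no covariate gave 0.13 for Abl1, 0.12 for Kit and 0.038 for Pdgfra, the block gave 0.086, 0.16 and 0.040 for the same genes, and sex read from expression gave -0.064 for Src, -0.069 for Yes1 and 0.018 for Pdgfra.

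Leaving out each mouse moved these values across 0. In TA, Yes1 ran from -0.37 to 0.086, Lyn from -0.31 to 0.019, Kit from -0.57 to 0.15 and Abl2 from -0.015 to 0.17. In heart, Yes1 ran from -0.048 to 0.046, Pdgfra from -0.20 to 0.021 and Pdgfrb from -0.12 to 0.066. In vehicle-treated heart against TA, Lyn ran from -0.075 to 0.097, Abl1 from -0.29 to 0.042 and Kit from -0.23 to 0.041, and in D + Q heart against TA Lyn ran from -0.29 to 0.096 and Pdgfrb from -0.29 to 0.027. In the interaction, Src ran from -0.084 to 0.19, Yes1 from -0.12 to 0.15, Lyn from -0.33 to 0.059, Abl1 from -0.12 to 0.088, Abl2 from -0.22 to 0.15, Kit from -0.25 to 0.16 and Pdgfra from -0.22 to 0.17.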
